A study of Mus musculus with 16 samples.

Results

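The genes described here carry out the steps of bile acid synthesis that lie beyond the first hydroxylation by Cyp7a1. They are the oxysterol hydroxylases Cyp7b1 and Cyp39a1, the ketosteroid reductase Akr1c6, the side chain enzymes Amacr, Hsd17b4 and Scp2, and the conjugating enzymes Slc27a5 and Baat. A probe was included when its single gene symbol in the platform annotation was one of these names, which gave 8 of 9596 probes, 1 for each of the 8 genes. All 8 genes had a value on each of the 16 arrays and passed the filter of values in at least 6 mice.

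The livers came from female APOE3Leiden (E3L) mice, transgenic for a human variant of apolipoprotein E on a C57BL6/JIco background, so that treated and control mice both carried the transgene. From 10 weeks of age, 7 control mice received a Western-type diet rich in saturated fat and cholesterol, and 8 mice received it with 0.04% cafestol and 0.02% kahweol by weight, the diterpenes of unfiltered coffee, for 4 weeks. Poly(A) RNA of each treated liver was labelled with Cy5 and set against control-diet liver RNA in Cy3 on 2 cDNA arrays, and the mean of these 2 arrays is the value of a mouse below (n = 8). No label names single control mice, so each mean was tested against 0 and the spread among control mice does not enter the test. The deposited values are log2 ratios, and the sources used here do not say which channel was divided by which. "Positive" and "negative" therefore refer to the sign as deposited, and every direction would turn if the ratio were turned.

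Bile acids are made from cholesterol in hepatocytes. In the main route Cyp7a1 hydroxylates cholesterol itself, while in the alternative routes cholesterol is first oxidised to an oxysterol and then hydroxylated by Cyp7b1 or Cyp39a1. The sterol ring is then reduced, and the side chain is activated to a coenzyme A ester, racemised by Amacr and shortened in peroxisomes by Hsd17b4 and the thiolase form of Scp2. Finally Slc27a5 attaches coenzyme A to bile acids and Baat links them to taurine or glycine.

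Promoter windows of the RefSeq table (build GRCm38.p6) were used for 2 of the 8 genes, Scp2 and Akr1c6. Hsd17b4 was excluded by name from this search, so whether it had a window is not stated here. The 250 bases before the start are shown. Scp2 lay farthest from 0 among the 8 genes, and Akr1c6 lay on the same side in every mouse. The Scp2 window (chr4:108118548-108118797, minus strand) precedes a start inside the annotated gene, which also makes a longer form. The Akr1c6 window is chr13:4434093-4434342, plus strand. Capitals mark the hexamer AGGTCA, a half-site of nuclear receptors, searched on both strands (AGGTCA or TGACCT).
Scp2: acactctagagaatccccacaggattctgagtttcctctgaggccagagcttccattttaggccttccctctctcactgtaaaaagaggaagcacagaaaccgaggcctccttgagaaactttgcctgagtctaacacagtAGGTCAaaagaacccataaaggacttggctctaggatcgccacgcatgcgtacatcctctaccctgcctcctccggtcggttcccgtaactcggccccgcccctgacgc
Akr1c6: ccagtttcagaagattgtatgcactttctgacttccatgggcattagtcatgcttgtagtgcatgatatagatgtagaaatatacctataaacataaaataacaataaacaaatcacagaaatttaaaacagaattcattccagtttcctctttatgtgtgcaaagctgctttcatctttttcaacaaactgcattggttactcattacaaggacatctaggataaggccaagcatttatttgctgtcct
The Scp2 window held the hexamer 1 time, beginning 109 bases before the start, and these letters were not in the Akr1c6 window. Of 32851 promoter windows of this length, 4607 (14.0%) held it on either strand.

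Of the 8 genes, 6 were positive, 1 was negative and 1 did not pass (limma, two-sided, Benjamini-Hochberg adjusted p under 0.05 over all genes tested). Among all 8348 genes and unnamed probes tested, 43.4% passed, 18% on the positive and 25.4% on the negative side. The median log2 ratio of the 8 genes was 0.28, against -0.02 over all tested. Side chain and conjugation enzymes were farthest from 0 on the positive side, and Cyp7b1 was the negative gene. For reference, Cyp7a1 averaged 1.56 ± 0.38 (SD, n = 8). If cafestol lowers Cyp7a1 here, as is known for these mice, positive values would be higher on the control diet, but that was not tested. Because whole livers were measured, fewer cells of a type and less RNA per cell cannot be told apart.

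**Figure D1:**
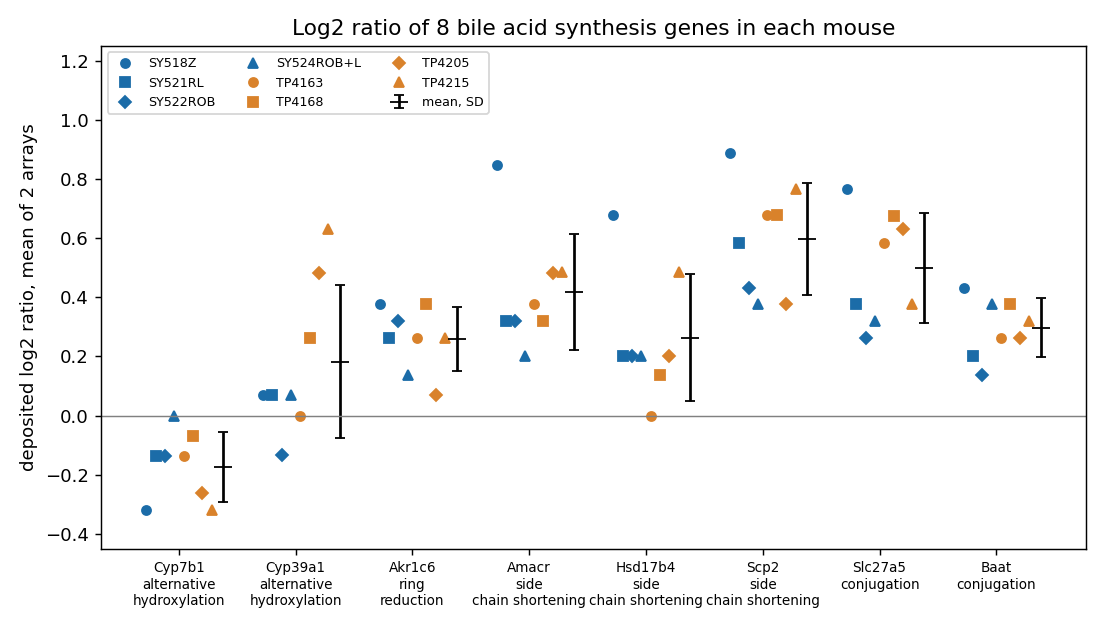
Deposited log2 ratio (vertical axis) of the 8 genes, ordered by pathway step, in each of the 8 mice (symbols, mean of 2 arrays; blue for SY and orange for TP identifiers), with the mean and SD in black. The points of Scp2, Slc27a5, Amacr, Baat and Akr1c6 all lie above 0, none of Cyp7b1 does, and SY518Z is the highest or joint highest mouse for 6 genes.

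Among the side chain enzymes, Scp2, which as a thiolase makes the last cut of the side chain and in its short form carries sterols, was lowest at 0.38 (SY524ROB+L and TP4205), had a median of 0.63 and was highest at 0.89 (SY518Z). All 8 mice and all 16 arrays were therefore positive. The mean log2 ratio was 0.60 ± 0.19 (SD, n = 8), a 1.51-fold difference (limma, adjusted p = 1.28e-05), and 23rd from the top of 8348. A cDNA probe can bind the long and the short transcript of Scp2 alike, and the sources used here do not say which one was read.

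Amacr, the racemase that turns the side chain into the form the peroxisome can oxidise, ran from 0.20 (SY524ROB+L) through a median of 0.35 to 0.85 (SY518Z). The other 7 mice lay at or below 0.49, so that SY518Z stood apart. The mean was 0.42 ± 0.20 (SD, n = 8), a 1.34-fold difference (limma, adjusted p = 0.000168), and all 16 arrays were positive. Without SY518Z the mean was 0.36 and the call held (limma, adjusted p = 7.66e-05). It was lost within the SY mice (0.0556) and on the c3z arrays (0.0524), nearly the same data.

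Hsd17b4, the peroxisomal enzyme that hydrates and dehydrogenates the side chain, was lowest at 0 (TP4163), had a median of 0.20 and was highest at 0.68 (SY518Z). It was the side chain enzyme nearest 0, positive in 7 of 8 mice, and 5 mice lay between 0.14 and 0.20. The mean was 0.26 ± 0.21 (SD, n = 8) on the log2 scale (limma, adjusted p = 0.00527). The call was lost when a spread of 7 control mice, taken to be as large as that of the treated mice, was added to the error (limma, adjusted p = 0.06), and within the SY mice (0.0697) and the TP mice (0.11) alone. Without SY518Z the mean was 0.20 (limma, adjusted p = 0.007).

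Of the conjugating enzymes, Slc27a5, the bile acid ligase that prepares bile acids for conjugation, had its lowest value of 0.26 in SY522ROB, a median of 0.48 and its highest value of 0.77 in SY518Z. The values fell into a lower set of 4 mice (SY522ROB, SY524ROB+L, SY521RL and TP4215, up to 0.38) and a higher set of 4 (TP4163, TP4205, TP4168 and SY518Z, from 0.58). The mean was 0.50 ± 0.19 (SD, n = 8), a 1.41-fold difference (limma, adjusted p = 3.89e-05), and all 16 arrays were positive.

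Baat, which joins the activated bile acid to its amino acid, had the smallest spread of the 8 genes. It ran from 0.14 (SY522ROB) through a median of 0.29 to 0.43 (SY518Z). The mean was 0.30 ± 0.10 (SD, n = 8), a 1.23-fold difference (limma, adjusted p = 6.42e-05), and all 16 arrays were positive. Slc27a5 was higher than Baat in 7 of 8 mice, by 0.20 ± 0.15 on average.

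Akr1c6, an aldo-keto reductase of steroids from the family that reduces the sterol ring, ran from 0.07 (TP4205) through a median of 0.26 to 0.38 (SY518Z and TP4168). The mean was 0.26 ± 0.11 (SD, n = 8) on the log2 scale (limma, adjusted p = 0.000232), and every mouse was positive. Its cDNA probe can also bind transcripts of closely related aldo-keto reductases, which could not be told apart.

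Of the hydroxylases of the alternative routes, Cyp7b1 was called negative and Cyp39a1 was not called. Cyp7b1, which hydroxylates oxysterols made in liver and other tissues, was lowest at -0.32 (SY518Z and TP4215), had a median of -0.14 and was highest at 0 (SY524ROB+L). It was negative in 7 of 8 mice and on 13 of 16 arrays, with 3 arrays at 0. The mean was -0.17 ± 0.12 (SD, n = 8), a 1.13-fold difference (limma, adjusted p = 0.0041). This is little more than the smallest step of the deposited values, 0.14, which are log2 of ratios rounded to 1 decimal. The call was lost with that added control spread (limma, adjusted p = 0.0512) and within the SY mice alone (0.122).

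Cyp39a1, which acts on the oxysterol made mainly in brain, varied most among the 8 genes. It was lowest at -0.13 (SY522ROB), had a median of 0.07 and was highest at 0.63 (TP4215), and 6 of 16 arrays were at 0. TP4215, TP4205 (0.48) and TP4168 (0.26) were the highest mice, while TP4163 was at 0 and no SY mouse exceeded 0.07. The mean of 0.18 ± 0.26 (SD, n = 8) did not pass (limma, adjusted p = 0.0654). Its value moved with the subset: it passed without SY522ROB (mean 0.23, adjusted p = 0.0295) and on the bl7 arrays alone (mean 0.30, adjusted p = 0.0315), was 0.12 without TP4215 (adjusted p = 0.143) and was 0.00 on the c3z arrays alone (adjusted p = 1).

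Against a minimum difference of 1.2-fold, 2 of the 8 genes passed, Scp2 (limma, adjusted p = 0.00466) and Slc27a5 (adjusted p = 0.0417), beside 1.47% of all genes tested. Amacr, Baat, Hsd17b4, Akr1c6 and Cyp7b1 did not pass that test.

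**Figure D2:**
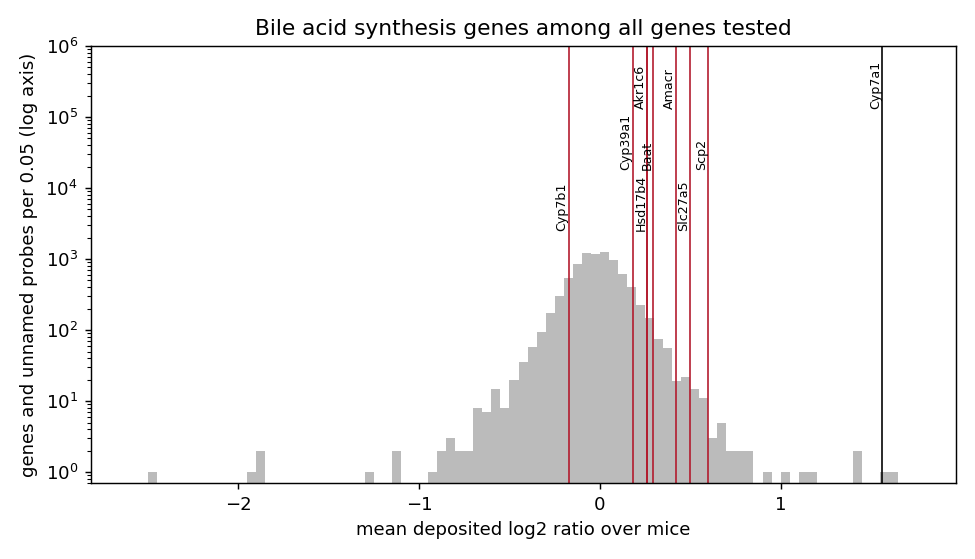
Histogram of the mean deposited log2 ratio over mice (horizontal axis) for all 8348 genes and unnamed probes tested, with the number per 0.05 on a log axis; red lines mark the 8 genes and the black line Cyp7a1. Scp2 at 0.60, Slc27a5 at 0.50 and Amacr at 0.42 lie in the right tail, and Cyp7b1 at -0.17 lies within the left part of the main peak.

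Within single mice the low place of Cyp7b1 and the high place of Scp2 were largely repeated. Cyp7b1 was the lowest of the 8 genes in 8 of 8 mice, although in SY522ROB it lay only 0.01 below Cyp39a1. Scp2 was the highest in 7 of 8 mice, level with Baat in SY524ROB+L, and Slc27a5 was the highest in TP4205. Averaged over genes of a step, side chain shortening ran from 0.26 to 0.80 across mice (mean 0.43 ± 0.18, SD, n = 8) and conjugation from 0.20 to 0.60 (mean 0.40 ± 0.13). Neither step was regularly above the other, since side chain shortening was higher in 4 mice and conjugation in 4. Alternative hydroxylation ran from -0.13 to 0.16 (mean 0.00 ± 0.11) and was below side chain shortening and below conjugation in 8 of 8 mice. That mean near 0 averages a negative mean of Cyp7b1 and an uncalled positive mean of Cyp39a1, which exceeded Cyp7b1 by 0.35 ± 0.33. In SY522ROB both genes were negative.

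Neighbouring genes often overlapped. Scp2 exceeded Slc27a5 in 7 of 8 mice, but the mean difference of 0.10 was smaller than its SD of 0.18. Amacr and Slc27a5 changed places between mice, with Amacr higher in 3 and Slc27a5 in 5. Akr1c6 and Hsd17b4 had nearly equal means and each was the higher in 4 mice. Scp2, by contrast, exceeded Hsd17b4 and Akr1c6 in 8 of 8 mice, by 0.34 ± 0.19 and 0.34 ± 0.13.

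One mouse, SY518Z, had the highest value, alone or shared, of 6 of the 8 genes (Scp2, Amacr, Slc27a5, Hsd17b4, Baat and Akr1c6) and shared the lowest value of Cyp7b1. Its Cyp7a1 ratio of 2.14 was also the highest of the 8 mice. This mouse was measured on 1 array with code c3z and 1 with code bl7, which the labels do not explain, and these read 0.85 and 0.93 for Scp2, 0.77 and 0.93 for Amacr, and 0.68 and 0.68 for Hsd17b4. Without SY518Z, 6 genes were again positive and 1 negative, and Scp2 averaged 0.56 and Cyp7b1 -0.15. At the other end, SY524ROB+L had the smallest span between its highest and lowest gene, 0.38, against 1.21 in SY518Z. Whole arrays also differed in spread. The SD over all probes was 0.25 and 0.21 on the arrays of SY518Z and 0.18 and 0.20 on those of SY524ROB+L. It was 0.26 and 0.25 on those of TP4215. The part of this array-wide spread in the values above was not tested. How many of all genes were highest in SY518Z was not counted.

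The mouse identifiers form a series SY and a series TP, 4 mice each, whose meaning no label gives. All 8 TP arrays carried the code bl7 and 7 of 8 SY arrays the code c3z, so series and code can hardly be told apart. None of the 8 genes differed between them after adjustment (limma, 0 of 8 called, beside 5.7% of all genes tested), and 1 of 8 had an unadjusted p under 0.05. That gene was Cyp39a1, at 0.02 in SY and 0.34 in TP mice, a difference of -0.33 (SY minus TP, SE 0.11, limma, adjusted p = 0.108). Without TP4163 the difference was -0.44 and passed (limma, adjusted p = 0.0224). Slc27a5 differed by -0.14 (0.43 in SY, 0.57 in TP, limma, adjusted p = 0.433), and by -0.25 without SY518Z (adjusted p = 0.0472). The other 6 genes differed by -0.05 to 0.11, and no call was made for them when 1 mouse was left out (adjusted p at least 0.153). Their differences moved, however: without SY518Z that of Amacr went from 0.01 to -0.14 and that of Scp2 from -0.05 to -0.16, and without TP4215 that of Hsd17b4 went from 0.11 to 0.21.

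The technical error was estimated from the duplicate arrays, which carried the same labelled RNA. The duplicates gave the same rounded ratio in 35 of 64 comparisons (8 genes in 8 mice, 54.7%), beside 50.3% over all genes tested, and the largest disagreement was 0.26, for Cyp39a1 in SY522ROB. For Scp2 the SD of the difference between duplicates was 0.04 while the SD between mice was 0.19. For Cyp39a1 these were 0.16 and 0.26, and for Amacr 0.13 and 0.20. The error of a mean of 2 arrays is the SD of the difference divided by 2. The SD between mice was 8.67 times that error for Scp2, 3.25 times for Cyp39a1 and 3.05 times for Amacr. For Scp2, however, 6 of 8 duplicate pairs gave the same rounded ratio. Rounding can hide smaller disagreements, so its error may be too low and the 8.67 too high. Duplicates of the same labelled RNA also leave out any error of labelling.

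**Figure D3:**
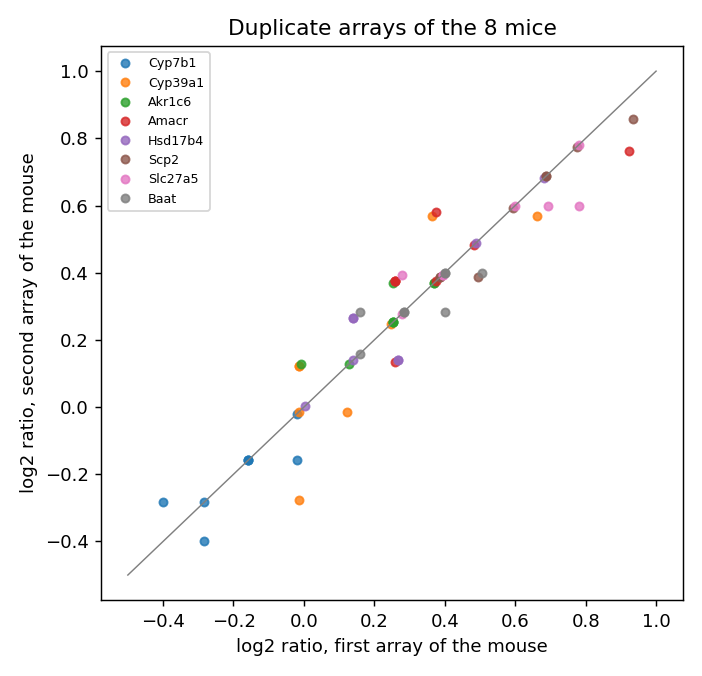
Log2 ratio on the first array (horizontal axis) against the second array (vertical axis) of each mouse for the 8 genes, with the line of equality; points are shifted slightly along the diagonal by gene so that ties show. Most points lie on the line, and no duplicate differs by more than 0.26.

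Other enzymes of bile acid synthesis were followed by a list of 10 genes, of which 3 were tested, 2 positive and 1 not called. Beside Cyp7a1 the positive gene was Slc27a2, the fatty acid and bile acid precursor ligase, at 0.57 ± 0.22 (SD, n = 8, limma, adjusted p = 4.22e-05). Its value lay above 0 in every mouse and close to that of Scp2. The cholesterol hydroxylase Ch25h, with values in 7 mice, was at 0.02 ± 0.16 and was not called. The other 7 genes of the list, among them Cyp8b1, Cyp27a1 and Acox2, are not analysed here.

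Peroxisomal genes, which share the organelle with side chain shortening, were followed as a list of 23, of which 15 were tested. Of these 8 were positive, 2 negative and 5 not called, beside 18% positive and 25.4% negative over all genes. The median was 0.14 against -0.02 over all genes. The largest was Hacl1, the lyase of branched fatty acids, at 0.58 ± 0.27, followed by the division factor Pex11a at 0.34 ± 0.39 and the transporter Abcd3, which brings bile acid precursors into the peroxisome, at 0.29 ± 0.22. Phyh, which starts the breakdown of phytanic acid, was at 0.22 ± 0.20, and the isomerase Ech1 at 0.22 ± 0.22. The 2 negative genes were Ehhadh, the fatty acid counterpart of Hsd17b4, at -0.36 ± 0.36 (limma, adjusted p = 0.0113), and catalase, Cat, at -0.12 ± 0.09. The mean of Cat was smaller in size than the smallest step of the deposited values, 0.14.

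Of 6 bile acid transport genes tested, 3 were positive and 0 negative (limma; 0 negative also at an unadjusted p under 0.05), with a median of 0.03. The called share was near the 43.4% of all genes (18% positive and 25.4% negative). The positive genes of this list were the sterol exporter Abcg5 (0.44 ± 0.16), the fatty acid binding protein Fabp1 (0.38 ± 0.48, limma, adjusted p = 0.0363) and the organic anion exporter Abcc2 (0.12 ± 0.13, adjusted p = 0.0392). The mean of Abcc2 was below the smallest step of the deposited values, 0.14. Abcb4, the phospholipid exporter of bile, stood at -0.19 ± 0.37 and was not called.

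Of 8 tested genes that sense bile acids or control their synthesis, 3 were positive, 1 negative and 4 not called (median 0.06). This called share was near the 43.4% of all genes (18% positive and 25.4% negative). The positive genes of this list were the xenobiotic receptor Nr1i2 (0.22 ± 0.20), the bile acid receptor Nr1h4 (0.19 ± 0.15) and the hepatocyte factor Hnf4a (0.10 ± 0.08). The mean of Hnf4a was below the smallest step of the deposited values, 0.14. Fgf15, known as an intestinal hormone that lowers bile acid synthesis, was negative at -0.18 ± 0.07, a size close to the rounding step. Nr5a2, an activator of Cyp7a1, stood at -0.08 ± 0.09 (limma, adjusted p = 0.0651) and the oxysterol receptor Nr1h3 at 0.00 ± 0.08.

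**Figure D4:**
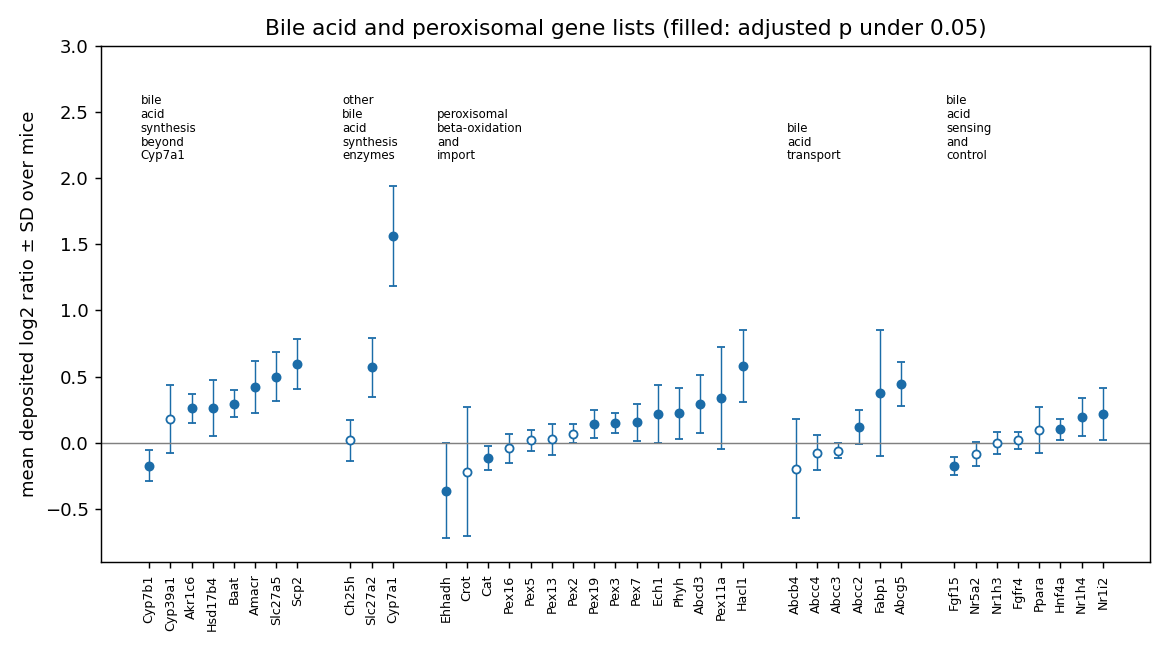
Mean deposited log2 ratio over mice (vertical axis, bars are SD) of the tested genes of 5 lists, sorted within each list; filled points had an adjusted p under 0.05. Cyp7a1 at 1.56 stands apart, and Slc27a2 at 0.57 and Hacl1 at 0.58 lie at the height of Scp2.

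The genes nearest in their per-mouse values were sought among 6180 other named genes with values in every mouse. The measure was the mean absolute difference of the log2 ratio over 8 mice, which matches the mean level as well as the pattern. Nearest were the coagulation factor F2 for Baat (mean absolute difference 0.04), the steroid dehydrogenase Hsd3b1 for Slc27a5 (0.08), the P450 Cyp2c69 and the coagulation factor F13b for Scp2 (0.10 each), and the asialoglycoprotein receptor Asgr1 for Amacr (0.06). Acad8 was nearest to Akr1c6 (0.05), Ndufb11 to Hsd17b4 (0.08), Usp32 to Cyp39a1 (0.07) and Lat to Cyp7b1 (0.02). Next nearest were Idh3b for Baat, Dmgdh for Slc27a5, Cryz for Amacr, Cpox for Akr1c6, Crebbp for Hsd17b4, Zfas1 for Cyp39a1 and Gng12 for Cyp7b1. With ratios rounded to 1 decimal, genes near 0 match many others, so small distances for Cyp7b1 say little.

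The deposited ratios give no levels, so liver markers could be followed only as ratios. Hepatocyte markers split, 3 positive, 3 negative and 3 not called of 9 tested, and ranged from -0.82 (Hpx) to 0.30 (Cps1), with albumin at 0.14 ± 0.30. Beside 25.4% of all genes, markers of other cells were called negative in 4 of 7 cases for Kupffer cells and macrophages, 5 of 10 for stellate cells and fibroblasts, 2 of 4 for endothelium, and 2 of 5 for bile ducts with 1 positive. The part of cell composition in the results above was not tested. Per array 8094 to 9314 probes had a value, and the number of arrays and mice limits the precision.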

How the data were processed

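For each of 16 arrays the authors deposited a log2 ratio per probe (9596 probes). How they normalized, whether background was subtracted, and which channel was the divisor: not given in the sources used here. Every array had a median of 0, and values were used as deposited. Probes were named from the platform annotation of GEO (7407 with 1 symbol, 437 with several, 1752 with none). Probes of a gene were averaged, then the 2 arrays of a mouse, which are technical duplicates. A value in at least 6 mice was required, which removed 575 of 8923 genes and unnamed probes, and 8348 were tested against 0 with limma 3.58.1 in R 4.3.3 (lmFit, eBayes, two-sided, Benjamini-Hochberg over all tested). SY and TP mice were compared in the same model with 2 groups. No dyes were swapped, so a dye effect of a gene would enter every ratio. P-values measure the spread among treated mice only. The script was run on simulated data in which both arrays of a mouse held the same value. Separate array error, dye effects and control spread were not part of that run. The members and lists were chosen with earlier results of these data known. Named genes were all members, up to 6 called genes of each list and the nearest profiles, with Cat and some uncalled list genes added after their values were seen. Alternatives covered centring, scaling, quantile normalization, probes, blanks, moderation, array and mouse subsets, a mouse block, a minimum fold and control spread. Figures used matplotlib 3.10.9.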

Additional observations from a re-analysis of the deposited data

Results flagged for a closer look

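Amacr in mouse SY518Z was at 0.85, far from the other 7 mice, the nearest of which was at 0.49. The gap was 55.8% of the whole range. Chance flags about 5% of groups by this measure, and 8 genes were examined. Both arrays of this mouse read high, 0.77 and 0.93. The cause was not tested.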

How the results depend on the processing

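Scp2 and Slc27a5 kept their sign and their call under all 27 alternatives (0.56 to 0.69 and 0.43 to 0.61). Not all of these could move a mean. Probes in place of genes and the filters of 4 or 8 mice left it unchanged, because each gene had 1 probe and a value in every mouse. With a minimum difference of 1.2-fold, Amacr (0.42), Baat (0.30), Hsd17b4 (0.26), Akr1c6 (0.26) and Cyp7b1 (-0.17) no longer passed, which left 2 positive and 0 negative genes in place of 6 and 1. With the added spread of control mice, Hsd17b4 (0.26) and Cyp7b1 (-0.17) lost their calls, leaving 0 negative, while the share called over all genes fell from 43.4% to 21.7%. In the SY mice alone, where 4 mice remain, Amacr (0.42), Hsd17b4 (0.32) and Cyp7b1 (-0.15) were not called, leaving 0 negative, and 24.9% of all genes were called. The c3z arrays are the same mice without 1 array of SY518Z, so they are no separate check. They gave 0.40, 0.32 and -0.13 for these genes, again uncalled with 0 negative, and 25.3% of all genes called. Hsd17b4 (0.21) was not called in the TP mice alone. Cyp39a1 passed with array means subtracted (0.20, chosen after seeing the data), on the bl7 arrays (0.30), and with the mouse as a random block of 16 arrays or the identifier series as a covariate (0.18 each). The causes of the Cyp39a1 changes were not tested. Leaving out each mouse in turn, Cyp39a1 ranged from 0.12 to 0.23 and passed without SY522ROB; its difference SY minus TP ranged from -0.44 to -0.23, and that of Slc27a5 from -0.25 to -0.079. Subtracting array medians or scaling to a common median absolute value changed nothing, because these were already the same on every array. The deposited ratios give no signal over background, so whether a probe was dim could not be examined.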
